A study of Mus musculus with 4 samples.

Results

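The genes described here are 6 apolipoprotein genes and clusterin (Apoe, Clu, Apod, Apoa1, Apoa4, Apob and Apoc1), 7 of the 48709 genes in the deposited expression table. They were taken by gene name, each from its only line. They were selected on measured values, the low level of Apoe and Clu in EGFP-positive against Tomato-positive cells of both tissues. Those differences are therefore given as a description and are not tested.

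Apolipoproteins are the protein part of lipoprotein particles, which carry cholesterol and triglycerides in blood, lymph and tissue fluid. ApoE, apoA-I, apoA-IV and apoC-I are small proteins that move between particles, while apoB stays with the particle it was made with. Clusterin, also called apolipoprotein J, is a secreted chaperone that binds misfolded proteins and lipids, and apoD is a lipid carrier of the lipocalin family. Macrophages are a well-known source of ApoE outside the liver, and enterocytes and hepatocytes of apoA-I, apoA-IV and apoB.

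RNA-seq was performed on EGFP-positive and Tomato-positive cells sorted from trachea and stomach of C57BL/6 mice that carried Tas2r143-CreERT2 together with the Cre reporter Rosa26flox-mT-stop-flox-mG. All mice, including the source of the Tomato-positive cells, carried CreERT2 under control of the Tas2r143 promoter on a BAC transgene of 1 line, received tamoxifen on 5 days and were used 5 days later. The study describes the mice as adult. Recombined cells switch from Tomato to EGFP and pass EGFP on to their progeny, so EGFP marks past as well as present promoter activity. The EGFP sort took EGFP-positive, DAPI-negative cells, and the Tomato sort alone was also gated on EpCAM, a surface protein of epithelial cells. Cells from 3 mice were pooled for each sort and tissue, which gave 4 libraries with 1 library per group. No difference between groups could therefore be set against a spread between replicates, and no p-value is given.

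The deposited values, called normalized counts here, are scaled read counts in whole numbers, with 1 scaling factor per library. They summed to between 9.98 and 15.43 M per library, or about 6.2 to 18.9 M assigned reads, with the fewest reads in the EGFP library of the trachea. Sample titles and the tissue field name opposite tissues, and the titles were followed. By the titles, the club cell gene Cyp2f2 was at 337775 normalized counts in the Tomato library of the trachea and 69 in that of the stomach, and the chief cell gene Pgc at 2 and 992416. Lipf, from the same list of chief cell markers, was at 53408 in the Tomato library of the trachea and 0 in that of the stomach. All 10 tuft cell genes of the marker list were at least 4-fold higher in EGFP-positive cells of both tissues. Of all genes that reached 50 normalized counts, 25.2% were so in the trachea and 14.8% in the stomach.

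Apoe (ENSMUSG00000002985) lies on the minus strand of chromosome 7 of GRCm38 from 19696109 to 19699188. Apoc1 (ENSMUSG00000040564) follows it on the same strand, from 19689481 to 19692660, with 3.4 kb between them. Apoa1 (ENSMUSG00000032083), from 46228580 to 46230466, and Apoa4 (ENSMUSG00000032080), from 46240696 to 46243459, are neighbours on the plus strand of chromosome 9, with 10.2 kb between them. Clu (ENSMUSG00000022037) is on the plus strand of chromosome 14 from 65968483 to 65981547, Apod (ENSMUSG00000022548) on the minus strand of chromosome 16 from 31296192 to 31314808, and Apob (ENSMUSG00000020609) on the plus strand of chromosome 12 from 7977648 to 8016835. Exons of Apoa4 share 634 bases with Gm47528 and 632 with Gm10680, both on the other strand, in the GENCODE annotation. The authors left out reads that overlapped several genes, so Apoa4 can be under-counted if their annotation held these genes. No exon of the other members overlapped another gene.

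Sequences 5′ of the transcription start are shown for Apoe, Apoa1 and Apod, which were found in Tomato-positive cells of both tissues, of the stomach alone and of the trachea alone, respectively. Each is the 250 bases before the RefSeq start on GRCm38.p6, read 5′ to 3′ on the gene's strand. For Apoe the first of 3 listed starts was taken. Capitals mark letters that matched a searched motif.
Apoe, chr7:19699189-19699438, minus strand: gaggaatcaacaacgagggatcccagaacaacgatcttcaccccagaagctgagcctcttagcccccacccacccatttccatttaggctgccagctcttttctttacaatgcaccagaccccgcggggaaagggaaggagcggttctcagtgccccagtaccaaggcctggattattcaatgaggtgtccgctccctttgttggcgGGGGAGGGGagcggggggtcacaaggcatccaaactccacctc
Apoa1, chr9:46228380-46228629, plus strand: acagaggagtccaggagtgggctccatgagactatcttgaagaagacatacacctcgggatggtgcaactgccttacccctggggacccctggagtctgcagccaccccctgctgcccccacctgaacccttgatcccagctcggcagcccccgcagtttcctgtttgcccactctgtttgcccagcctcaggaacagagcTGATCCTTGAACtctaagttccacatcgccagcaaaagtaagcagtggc
Apod, chr16:31314809-31315058, minus strand: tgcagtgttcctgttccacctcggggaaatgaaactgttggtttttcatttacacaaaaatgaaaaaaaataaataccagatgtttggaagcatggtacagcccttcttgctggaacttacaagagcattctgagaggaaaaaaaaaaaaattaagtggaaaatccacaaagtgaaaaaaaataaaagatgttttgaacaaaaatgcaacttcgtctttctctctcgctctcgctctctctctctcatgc

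Motifs were searched on both strands and were chosen with the sequences in view. The G-rich box GGGGNGGGG was in the Apoe sequence, as in 20.6% of all 32851 promoter sequences of the same length. The Apoa1 sequence held a repeat of TGANC with NT between the copies, half-sites of the kind that nuclear receptors bind, as in 0.356% of promoters. The GENCODE start of Apoa1, at 46228580, lies inside the sequence shown, and the repeat lies just past it. The GC box GGGCGG, the TATA box TATAAA and the AP-1 site TGANTCA, in 32.7, 12.4 and 6.75% of promoters, were in none of these sequences. The searched motifs do not overlap in them, and among the members not shown the Apob sequence held a G-rich box and TATAAA and that of Apoa4 none. The Apod sequence had a G and C content of 36.4%, against 57.2% for Apoe and 58.0% for Apoa1. RefSeq entries for Clu and Apoc1 were not in the table used.

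Apoe and Clu made up most of the signal of the 7 genes. Together they held 96.0% of the members' normalized counts in the Tomato library of the trachea and 96.5% in that of the stomach. In EGFP-positive cells the members summed to 3523 normalized counts in the trachea, all from Apoe, and to 10830 in the stomach, of which Clu held 93.5%. Apoe was thus the member found in EGFP-positive cells of the trachea, and Clu the leading member in those of the stomach.

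**Figure D1:**
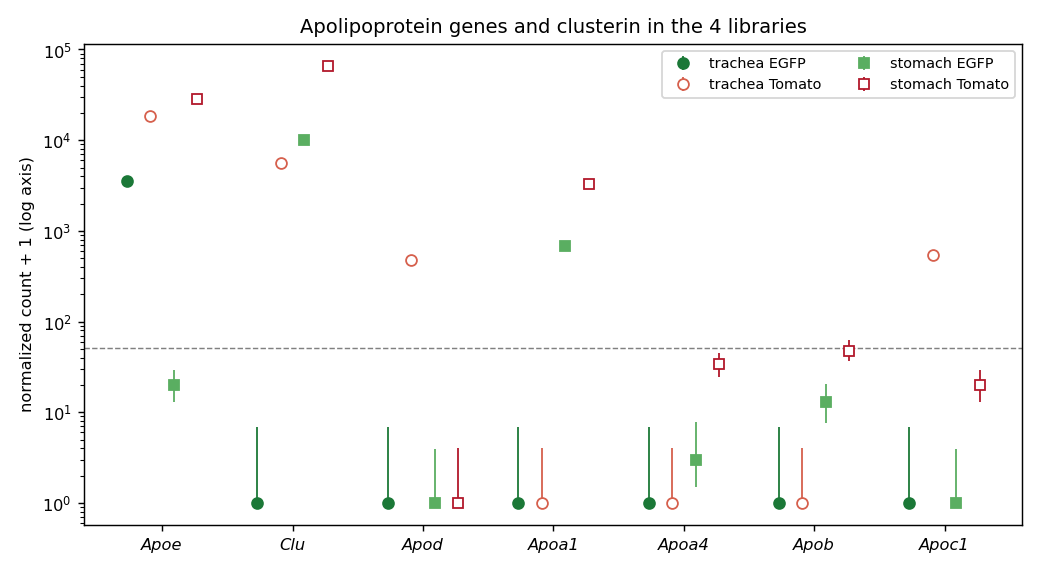
Normalized counts plus 1 of the 7 genes on a log axis, with 1 point per library (circles trachea, squares stomach, filled EGFP, open Tomato) and 95% Poisson intervals for counting error only. The dashed line is the minimum of 50 normalized counts, and Apoe and Clu trade places between the EGFP libraries, at 3523 and 0 in the trachea and 19 and 10124 in the stomach.

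Apoe, the ligand through which remnant particles bind their receptors on cells, was at 3523 normalized counts in the EGFP and 18700 in the Tomato library of the trachea. In the stomach it was at 19 and 28297, and 19 normalized counts correspond to about 24 reads. Apoe was thus high in both Tomato libraries and in the EGFP library of the trachea, and low in the EGFP library of the stomach alone. It was 5.31-fold lower in the EGFP than in the Tomato library of the trachea (95% interval 5.08 to 5.55, exact binomial on estimated reads) and 1489-fold lower in the stomach (1008 to 2342). These intervals and all others cover counting error only.

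On a per-length scale, with normalized counts divided by the kb of exon sequence, Apoe stood at 8746 per kb in the Tomato library of the trachea and 13235 per kb in that of the stomach. These levels ranked 70th of 13528 and 33rd of 16142 detected genes. In EGFP-positive cells Apoe was at 1648 per kb in the trachea, rank 355 of 11494, and at 8.89 per kb in the stomach, rank 9706 of 15124. Even in the tracheal EGFP cells Apoe was therefore among the more abundant transcripts.

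Clu was at 5625 normalized counts in Tomato-positive cells of the trachea and listed at 0 in EGFP-positive cells. With a floor of 3 reads it was at least 1164-fold lower in the EGFP-positive cells. In the stomach Clu was at 10124 normalized counts in EGFP-positive and 65551 in Tomato-positive cells, 6.48-fold lower (6.36 to 6.60). The gastric EGFP library thus held more Clu than the tracheal Tomato library, although it was lower than the gastric Tomato library. Per length, Clu was at 19072 per kb in the gastric Tomato library, rank 26 of 16142, and at 2946 per kb in the gastric EGFP library, rank 274 of 15124.

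In the tracheal Tomato library Clu was at 1637 per kb, and Apoe at 8746 per kb was above it. In the gastric Tomato library the order was the other way round, with Clu at 19072 and Apoe at 13235 per kb. The order of the pair thus differed between the Tomato libraries, as it did between the EGFP libraries.

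The difference between sorts was taken as log2((EGFP + 1)/(Tomato + 1)), and genes were called lower or higher from 4-fold on where the higher library reached 50 normalized counts. In the trachea, 4 of the 7 members reached this minimum (Apoe, Clu, Apod and Apoc1), and all 4 were called lower. Of all 10523 genes at the minimum, 32.4% were called lower and 25.2% higher. In the stomach 3 of the 7 members reached the minimum (Apoe, Clu and Apoa1), and these 3 were called lower, against 22.4% lower and 14.8% higher of all 11094 genes. Nothing is read from these shares, since this contrast chose the members.

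The log2(EGFP/Tomato) of Apoe was -2.41 in the trachea and -10.47 in the stomach, a difference of 8.06. That of Clu was -12.46 and -2.69, a difference of -9.76. Apoe was thus lower mainly in the stomach and Clu mainly in the trachea. Both differences between tissues rest on 1 library per group and were not tested. The values for Clu in the trachea depend on the pseudocount. Its bound of 1164-fold does not, but it rests on the floor of 3 reads and on the scaling of the libraries.

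Among the members called in the trachea, Apoe was closest to the limit of 4-fold. Scaling all libraries to the same total moved it to -1.83, or 3.56-fold lower, which is no longer called, while the median of all genes in the trachea moved from -0.32 to 0.35. Relative to that median, Apoe was at -2.09 as deposited and -2.18 at the same total. In the stomach the median of all genes moved from -0.15 to 0.05, and Apoe, Clu and Apoa1 were still called at -10.29, -2.52 and -2.11.

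**Figure D2:**
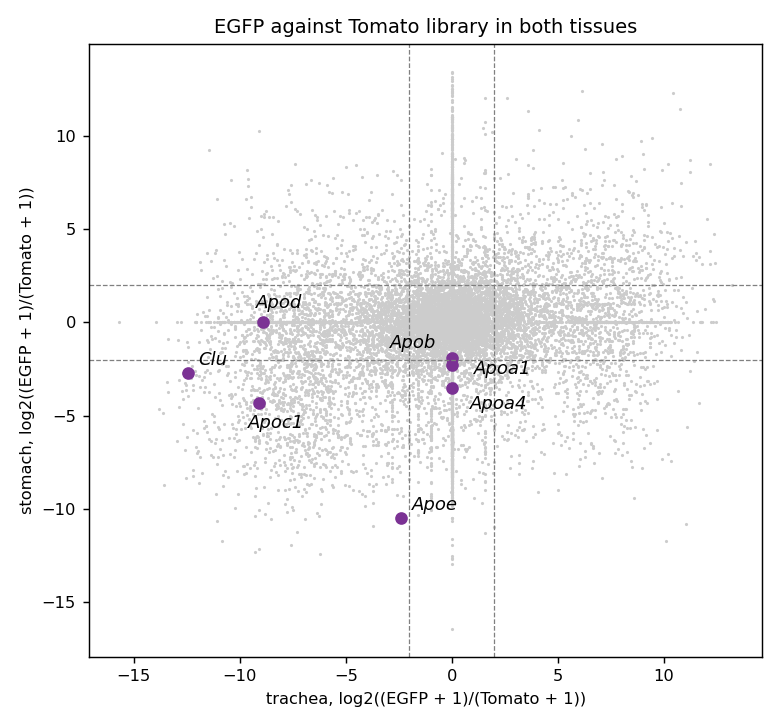
Log2((EGFP + 1)/(Tomato + 1)) in the trachea (horizontal axis) and in the stomach (vertical axis), with the 7 members as large points over all genes that reached 50 normalized counts in any library as small points, and dashed lines at 4-fold. Apoe is at -2.41 and -10.47 and Clu at -12.46 and -2.69, and the members on the vertical line at 0 were listed at 0 in both tracheal libraries.

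Apoc1, a small apolipoprotein that inhibits lipoprotein uptake and lipases, was at 548 normalized counts in Tomato-positive and 0 in EGFP-positive cells of the trachea, at least 113-fold lower. In the stomach it was at 19 normalized counts in Tomato-positive and listed at 0 in EGFP-positive cells, at least 8.06-fold lower but under the minimum. Apoc1 was thus found in Tomato libraries alone, and mainly in that of the trachea. Where Apoe was kept in the tracheal EGFP library at 18.8% of its Tomato level, its neighbour Apoc1 was not detected there, and 0 reads allow up to 4.83 normalized counts. The other apolipoprotein genes of this cluster, Apoc2 and Apoc4, were listed at 0 in all 4 libraries. Tomm40, which lies 2.1 kb from Apoe on the other side, was at 5 to 35 normalized counts.

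Apod was at 477 normalized counts in Tomato-positive cells of the trachea and listed at 0 in the other 3 libraries. It was at least 98.7-fold lower in EGFP-positive cells of the trachea. In the stomach 0 reads allow up to 2.36 normalized counts for EGFP-positive and 2.45 for Tomato-positive cells, so no fold can be given there.

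Apoa1, the main protein of high density lipoprotein, was found in the stomach alone. It was at 673 normalized counts in EGFP-positive and 3285 in Tomato-positive cells, 4.88-fold lower (4.53 to 5.26), and listed at 0 in both tracheal libraries. Per length it stood at 545 per kb in the EGFP and 2658 per kb in the Tomato library, rank 1293 of 15124 and 227 of 16142. The EGFP-positive cells of the stomach thus held Apoa1 at 20.5% of the Tomato level, while Apoe was at 0.0671% and Clu at 15.4%.

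Apoa4 and Apob, which enterocytes use to build chylomicrons, were near the detection limit. Apoa4 was at 2 normalized counts in EGFP-positive and 33 in Tomato-positive cells of the stomach, about 3 and 40 reads. Their ratio of 0.0606 corresponds to 16.5-fold, with an interval of 4.41 to 69.9. Apob was at 12 and 47 normalized counts, about 15 and 58 reads, 3.92-fold lower (2.25 to 7.63). Both were lower in the EGFP library of the stomach by more than counting error, stayed under the minimum of 50 and were listed at 0 in the trachea. Within the cluster on chromosome 9, Apoc3 and Apoa5 were listed at 0 in all 4 libraries.

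The differences between tissues within a sort were not the contrast of the rule but come from the same 4 values of each gene, so they too are a description, and nothing is read from the shares given beside them. Among EGFP-positive cells 3 members reached the minimum, and all 3 were called, with Apoe higher in the trachea and Clu and Apoa1 higher in the stomach. Of 10337 genes in this comparison, 19.8% were called higher in the trachea and 28.3% lower. Apoe was 185-fold higher in the EGFP library of the trachea (125 to 292). Clu was at least 2095-fold and Apoa1 at least 139-fold lower there than in the stomach.

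Among Tomato-positive cells 5 members reached the minimum and 4 were called, against 20.3% higher in the trachea and 27.9% lower of 11338 genes. Apod and Apoc1 were higher in the trachea, Apod at least 195-fold and Apoc1 28.8-fold (19.3 to 46.4). Clu was 11.7-fold higher in the stomach (11.4 to 11.9), and Apoa1 at least 1354-fold. Apoe was not called, with a ratio of trachea to stomach of 0.661 (0.650 to 0.672). Apoe thus differed least between the Tomato libraries of the members at the minimum, and by 7.46 on the log2 scale between the EGFP libraries. With 1 library per group, none of these differences could be set against animal to animal variation.

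Genes with profiles most like those of Apoe and Clu were sought among 13022 genes by the distance between log2 profiles centred on their mean over the 4 libraries. Nearest to Apoe were Kif23 at a distance of 1.30, Cd14 at 1.64, Serpinf1 at 1.82, Car8 at 1.87 and Matn2 at 1.94. Cd14, a receptor for bacterial lipopolysaccharide on monocytes and macrophages, was at 325 (EGFP) and 4253 (Tomato) normalized counts in the trachea and at 0 and 1905 in the stomach. Kif23, a motor protein of dividing cells, was at 90 and 1574 in the trachea and at 0 and 915 in the stomach. Nearest to Clu were Sprr1a at 2.27, Ptgr1 at 2.59, Sptssb at 2.60, Spp1 at 2.89 and Sprr2a3 at 3.49. Sprr1a, a cornified envelope protein, was at 0 and 3706 in the trachea and at 1411 and 15535 in the stomach. Sprr2a3 has near-identical relatives that can share or lose reads. With 4 libraries many genes can lie this close, so these names are a description.

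Macrophage transcripts were found in the Tomato libraries, whose sort was gated on EpCAM, and most were lower with EGFP. Of the markers at the minimum, 8 of 9 were called lower and 0 higher in the trachea, and 11 of 12 and 0 in the stomach. Of all genes, 32.4% were lower and 25.2% higher in the trachea, and 22.4% and 14.8% in the stomach. Of 13 macrophage and monocyte markers, 10 were above 0 in the tracheal Tomato library with a sum of 41906 normalized counts, and 3 in the EGFP library with a sum of 850. In the stomach 13 were above 0 in the Tomato library with a sum of 18372, and 4 in the EGFP library with a sum of 177. Over all genes, 13555 were above 0 in the Tomato and 11522 in the EGFP library of the trachea, and 16174 and 15163 in the stomach. C1qa, C1qb, C1qc and Csf1r were at 0 in both EGFP libraries, and Adgre1 also in the tracheal Tomato library. Lyz2, a lysozyme of myeloid cells, made up most of the tracheal sums, at 470 (EGFP) and 35491 (Tomato), and was at 0 and 5413 in the stomach. The summed macrophage level in EGFP-positive cells was 2.03% of the Tomato level in the trachea, where Apoe was at 18.8%, and 0.963% in the stomach, where Apoe was at 0.0671%. Without Lyz2, left out after its values were seen, the sums were at 5.92% and 1.37%. Fewer cells of a type and less RNA per cell cannot be told apart in these pooled libraries. The part of macrophages in the Apoe and Apoc1 values was not tested.

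Fibroblast markers were mostly lower with EGFP, with 8 lower and 1 higher of 9 at the minimum in the trachea and 9 of 9 lower in the stomach. Of all genes, 32.4% were lower and 25.2% higher in the trachea, and 22.4% and 14.8% in the stomach. The fibroblast marker that was higher was Pdgfrb, at 121 (EGFP) and 11 (Tomato). Of 10 markers, 9 were above 0 in the tracheal Tomato library with a sum of 26061 normalized counts and 4 in the EGFP library with 599, or 2.3%. In the stomach 10 and 7 were above 0, with sums of 28221 and 280. The part of fibroblasts in the members' values was not tested. Of 8 glial markers, 1 to 3 were above 0 in each library, with sums from 216 to 460 normalized counts that were mostly from Mbp.

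Epithelial markers of the Tomato libraries set another scale for the EGFP libraries. Club cell markers summed to 4.53%, basal cell markers to 1.27% and ciliated cell markers to 6.48% of their Tomato level in the EGFP library of the trachea, all below the 18.8% of Apoe. Such sums are set by their most abundant genes. Of the single markers at the minimum, Tekt1 of ciliated cells was above Apoe, at 46.7%, and the others were below. In the stomach chief cell markers were at 4.34%, pit and neck cell markers at 11.8% and enteroendocrine markers at 0.295%, with Clu at 15.4% and Apoa1 at 20.5%. Clu and Apoa1 were thus above these 3 marker sums, whereas parietal cell markers were higher, at 43.1%. Within these 3 lists, Bhlha15 (22.5%), Muc6 (21.2%) and Pga5 (17.5%) were above Clu, and the other markers at the minimum were below it. Hepatocyte markers had sums of 384 (EGFP) and 4873 (Tomato) in the stomach, or 7.88%, mostly from Ttr. Absorptive enterocyte markers summed to 5871 and 1583, with Vil1 (3482 and 347) and Fabp1 (2256 and 92) higher with EGFP and Fabp2 (39 and 518) and Anpep (94 and 617) lower. Of 6 B and plasma cell markers, 3 were called higher with EGFP and 1 lower in the trachea, and 5 higher and 0 lower in the stomach, with sums of 19332 against 6606 and 685864 against 37955. The lower 1 was Sdc1, at 0 against 5642. Over all genes the shares were 25.2% higher and 32.4% lower in the trachea, and 14.8% and 22.4% in the stomach. Mast cell markers were at 154% of the Tomato level in the trachea and 5.39% in the stomach. The tracheal EGFP sum was all from Kit, at 784 against 139. Mcpt2 and Tpsb2 were called lower there, at 0 against 155 and 0 against 214. Dendritic cell and antigen presentation markers were at 1.26% of the Tomato level in the trachea and 9.88% in the stomach. Whether carry-over between sorts contributed to the members' values was not tested.

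**Figure D3:**
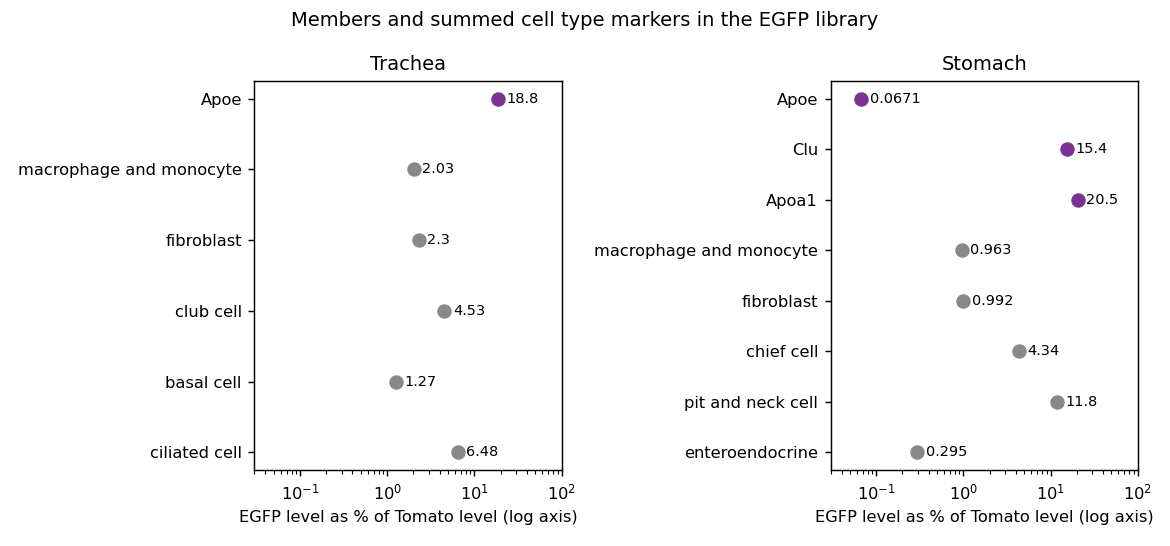
Level in the EGFP library as percent of the Tomato library on a log axis, for members above 0 in both libraries that reached 50 normalized counts (purple) and for summed marker lists of 5 cell types per tissue (grey), 1 library per sort. In the trachea Apoe is at 18.8% and the marker sums at 1.27 to 6.48%, and in the stomach Apoe is at 0.0671%, below all 5 marker sums. Tracheal Clu, Apod and Apoc1 were listed at 0 in the EGFP library and are not drawn.

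The other apolipoprotein genes were mostly at low levels. Of 25 such genes, 4 reached the minimum in the trachea, with 2 lower and 0 higher, and 5 in the stomach, with 2 lower and 0 higher. Of all genes, 32.4% were lower and 25.2% higher in the trachea, and 22.4% and 14.8% in the stomach. Their median log2(EGFP/Tomato) was -1.40 in the trachea and -0.18 in the stomach, where the medians of all genes were -0.32 and -0.15. Apof, a protein that inhibits lipid exchange between lipoproteins, was at 1147 (EGFP) and 323 (Tomato) normalized counts in the stomach, a ratio of 3.55 just under the limit. It was listed at 0 in both tracheal libraries. Lower were Apol7a and Apool in the trachea and Apol8 and Apol10b in the stomach, named after their values were seen.

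Of 13 receptors for apolipoproteins, 6 reached the minimum in the trachea with 2 lower and 0 higher, against 32.4% lower and 25.2% higher of all genes. In the stomach 8 reached it with 4 lower and 1 higher, against 22.4% and 14.8%, and with so few genes nothing is read from these shares. Medians were 0.38 and -2.34. Lrp1, a large endocytic receptor for ApoE particles, was lower in both, at 0 against 654 normalized counts in the trachea and 7 against 243 in the stomach. Sorl1, a sorting receptor that binds ApoE, was at 72 and 367 in the trachea, 5.10-fold lower (3.73 to 7.05), and at 962 and 156 in the stomach, 6.17-fold higher (5.30 to 7.23). Cd36, a scavenger receptor for lipoproteins and fatty acids, was at 7513 and 3248 in the trachea, 2.31-fold higher and not called, and at 120 and 1200 in the stomach, a log2 value of -3.31.

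Of 10 genes of lipoprotein assembly, 9 reached the minimum in the stomach with 4 higher and 0 lower, against 14.8% higher and 22.4% lower of all genes. Their median was 0.97. The 4 were Mttp, the transfer protein that loads lipid on apoB, Mogat2, Tm6sf2 and Cideb, named after their values were seen. Mttp was at 73 and 16 normalized counts, Mogat2 at 231 and 15, Tm6sf2 at 852 and 29 and Cideb at 267 and 33, each higher in EGFP-positive cells. All 4 reached the minimum in the EGFP library alone, so nothing is read from their count beside the shares of all genes. Apob, the protein that this machinery lipidates, was at 12 and 47 in the same libraries. In the trachea 5 genes reached the minimum with 1 higher and 2 lower, against 25.2% and 32.4%, and a median of -0.30, and P4hb and Sar1b were called in neither tissue.

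Of 12 genes of lipid efflux and lipoprotein remodelling, 5 reached the minimum in the trachea with 2 higher and 3 lower, against 25.2% and 32.4% of all genes. In the stomach 9 reached it with 3 higher and 2 lower, against 14.8% and 22.4%. Medians were -2.44 and 1.46. Abcg1, which exports cholesterol to lipoproteins, was at 3084 and 16718 normalized counts in the trachea, 5.42-fold lower (5.17 to 5.68), and at 208 and 3757 in the stomach, 18.1-fold lower (15.9 to 20.5). Pltp, the phospholipid transfer protein, was at 0 against 964 and at 29 against 355. Hepatic lipase Lipc was higher in both tissues, at 349 and 226 normalized counts with EGFP against 0 in each Tomato library. Abcg1 and Pltp were thus lower along with Apoe, and Lipc was not. Lipoprotein lipase Lpl was at 556 and 1445 in the stomach and was not called.

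Among 8 regulators of sterol and lipoprotein genes, 6 reached the minimum in the trachea with 2 higher and 2 lower, against 25.2% and 32.4% of all genes. In the stomach 6 reached it with 0 higher and 2 lower, against 14.8% and 22.4%. Medians were 0.47 and -1.29. Rxra, the partner of many lipid-sensing nuclear receptors, was higher in the trachea at 72 and 15 normalized counts, 4.80-fold (2.70 to 8.54), and lower in the stomach at 68 and 463, 6.81-fold (5.39 to 8.58). Mylip, a ubiquitin ligase that lowers lipoprotein uptake, was at 11 and 4561 in the trachea and at 2 and 16 in the stomach. Srebf2, the sterol-sensing activator of cholesterol synthesis, was higher in the trachea at 409 and 61, and not called in the stomach at 1441 and 818. Of the liver X receptor genes, Nr1h2 was called in neither tissue. Nr1h3, named after its values were seen, was called lower in the trachea at 0 against 176, and was listed at 0 in both libraries of the stomach. Hnf4a, a nuclear receptor that regulates Apoa1 in the liver, was at 775 and 822 in the stomach and listed at 0 in the trachea. In the gastric EGFP library Hnf4a was at 94.3% of its Tomato level and Apoa1 at 20.5%. A link between Hnf4a and Apoa1 was not tested. Hnf4a was named after its values were seen. With genes at 0 set to the floor of 3 reads and no pseudocount, the median of the other apolipoproteins in the trachea was -1.46, that of the receptors in the stomach -2.38 and that of the efflux genes in the stomach 1.47, and the other medians of these lists kept their values.

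**Figure D4:**
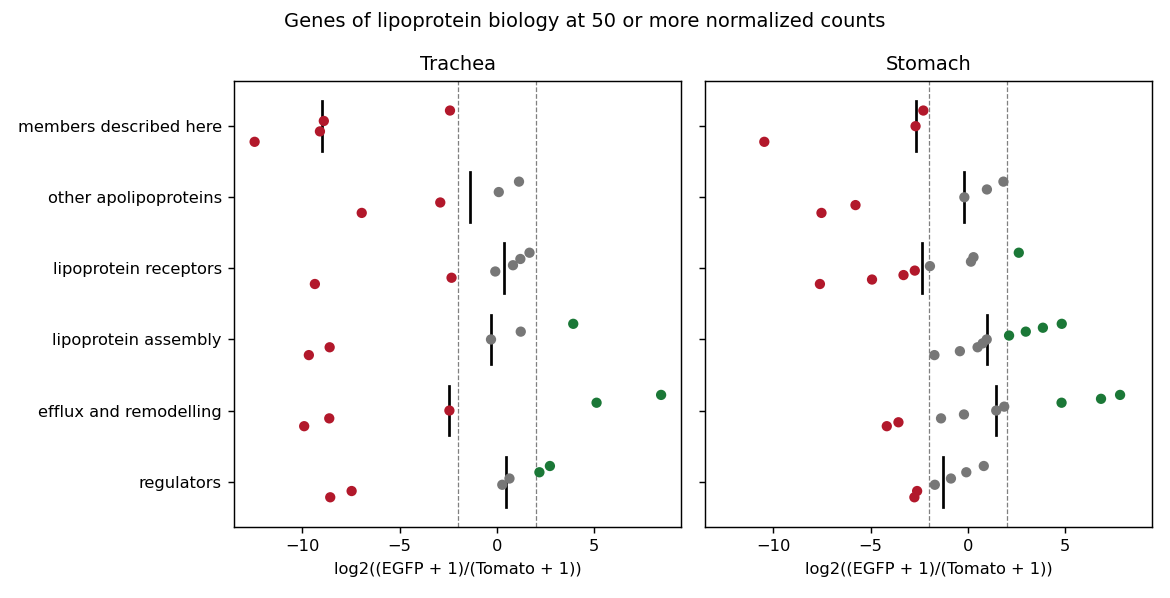
Log2((EGFP + 1)/(Tomato + 1)) in trachea and stomach for genes at 50 or more normalized counts, in rows for the 7 members and 5 lists of lipoprotein genes, with points colored as lower (red), higher (green) or neither (grey), black bars at the medians and dashed lines at 4-fold. In the stomach 4 of 9 assembly genes lie above 2 and none below -2, against 14.8% higher and 22.4% lower of all genes. These 4 reached 50 normalized counts in the EGFP library alone, so nothing is read from their count. The 3 members lie below -2, in the contrast on which the members were chosen.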

How the data were processed

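RNA-seq covered 4 libraries, each of cells pooled from 3 mice. The authors trimmed reads, aligned them to mm10 (GRCm38) with STAR 2.4.0a and counted reads in exons with featureCounts 1.4.5-p1, leaving out reads of several genes or places. The deposited score is the authors' normalized count, scaled reads rounded to whole numbers. The origin of the scaling factors is unknown here, and a factor moves all genes of its library together. Where a symbol had several lines, that with the largest sum was taken. The worth of 1 read was estimated from the spacing of the values 3 to 60, which gave 1.61 normalized counts in the EGFP and 0.809 in the Tomato library of the trachea, and 0.786 and 0.816 in those of the stomach. Dividing by it gave estimated reads, used for exact binomial and Poisson 95% intervals and for the floor of 3 reads. Since cDNA was amplified by PCR without molecular identifiers, these cover counting error only. Simulated libraries, on which the steps were tested, gave a largest error of 0.001 in this worth. Exon lengths came from GENCODE M21, and promoters from RefSeq. Libraries with 1 sample per group allowed no test, so genes were called by size, 4-fold with at least 50 normalized counts and a pseudocount of 1. Members and gene lists were chosen with earlier results of these data known. Named were the members, genes of the lipoprotein lists called in both tissues or at 1000 or more normalized counts, 5 nearest profiles each for Apoe and Clu, and marker genes that a result turned on, with exceptions from the lipoprotein lists marked. Apoc2, Apoc3, Apoc4, Apoa5 and Tomm40 were named for their place beside members. Python 3.11.15, numpy 2.4.6, pandas 2.3.3 and scipy 1.17.1 were used.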

Additional observations from a re-analysis of the deposited data

Results flagged for a closer look

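Sorl1 and Rxra were called in opposite directions in the tissues. The log2(EGFP/Tomato) of Sorl1 was -2.33 in the trachea and 2.62 in the stomach, and that of Rxra was 2.19 and -2.75. Each value rests on 1 library per sort, and the difference between tissues was not tested.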

How the results depend on the processing

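No paired analysis was possible because each group holds 1 library, and for the same reason no library could be left out. Other pseudocounts, scalings, minimums and fold limits were tried, 8 settings for each of 4 comparisons. The count of members called stayed within 1.5 times in 30 of 32 cases. The other 2 were in the stomach, EGFP against Tomato, where the count of 3 became 5 without a minimum (Apoa4 and Apoc1 were added) and 1 at 8-fold (Apoe). In the trachea Apoe lost its call when libraries were scaled to equal totals (-1.83) and at 8-fold, and Apod fell under a minimum of 500 normalized counts. No called value of a member changed direction. Over all genes, calls in the trachea ranged from 1459 to 4692 lower (3411 in the text's setting) and from 1162 to 3567 higher (2651). In the stomach they ranged from 605 to 4234 lower (2487) and from 663 to 2882 higher (1639). Between EGFP libraries the ranges were 917 to 5130 lower in the trachea (2923) and 844 to 3181 higher (2048), and between Tomato libraries 769 to 5393 (3167) and 1149 to 3514 (2298). The log2 values of genes at 0 moved with the pseudocount, Clu in the trachea from -12.46 to -15.78 at 0.1 and to -9.14 at 10. Median-of-ratios factors lay between 1.040 and 1.046, so the deposited values were already close to that scale. This setting could hardly change a call, and its cases add little to the 30 of 32. Depth limits Apoa4, Apob, gastric Apoc1 and gastric EGFP Apoe, which rest on 58 reads or fewer per library.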
